A study of Mus musculus with 12 samples.

Results

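The comparison described here is that of the distal colon between Ctrl and Y/T KO mice, which makes up 6 of the 12 libraries of the series. The members were the 3 libraries whose titles name a control colon and the 3 whose titles name a knockout colon, and of the 54532 genes in the deposited tables the 17500 that reached 0.5 TPM in 3 or more of these 6 libraries were tested. All mice were males of 5 to 7 weeks, on a mixed background, with both copies of *Yap1* and *Wwtr1* floxed (YAP fl/fl, TAZ fl/fl), and all received 1 mg of tamoxifen a day for 5 days. Y/T KO mice (759, 783, and 780) carried the Myh11-CreERT2 transgene, in which the promoter of smooth muscle myosin heavy chain drives a Cre recombinase that tamoxifen activates, whereas Ctrl mice (788, 786, and 787) lacked it. The colon was taken on day 7 after the first injection and frozen whole, so each library holds mucosa, submucosa, nerves, and muscle of 1 mouse. Because the tissue is a mixture, fewer cells of a type and less RNA per cell cannot be told apart in any value below. No Ctrl mouse carried Cre, so an effect of the recombinase itself cannot be told apart from that of the deletion.

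YAP and TAZ (the latter encoded by *Wwtr1*) are co-activators that carry mechanical and growth cues to the nucleus. They do not bind DNA themselves and act mainly through the TEAD transcription factors, and the kinases of the Hippo pathway hold them in the cytoplasm. In smooth muscle they work next to serum response factor and its partners of the myocardin family, which switch on the actin, myosin, and calponin genes of the contractile apparatus. In the colon this apparatus is driven by acetylcholine on muscarinic receptors and by other transmitters, and its rhythm is set by the interstitial cells of Cajal and the enteric nervous system.

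Levels of single libraries are TPM as deposited, that is, a transcript's share of all transcripts in the library after division by length. Means with SD are of TPM rescaled by size factors (0.961 to 1.1 in the colon). Log2 fold changes are differences of log2(TPM + 0.1), Y/T KO minus Ctrl, which understate the change of low genes. Values given as n-fold are ratios of the rescaled means with nothing added, so the 2 measures can differ. Adjusted p-values are two-sided, from limma over all 17500 genes with Benjamini-Hochberg adjustment. A gene was called at an adjusted p under 0.05, and the groups were said not to overlap where every rescaled value of one genotype lay beyond every value of the other. Aligned sequence ran from 2.92 to 3.94 gigabases a library. The epithelial markers fit the label of colon: *Epcam* stood between 1476 and 1822 TPM and *Vil1* between 303 and 370 TPM in the 6 libraries. The urothelial markers were mixed. *Upk2* was at 0 in 5 of the libraries and at 0.172 TPM in the other, and *Upk3a* stood at 1.18 TPM or less. *Upk1a*, by contrast, stood between 8.88 and 17.9 TPM in all 6. Some genes that nearly every cell uses have low values in these tables (*Gapdh* stood at 4.31 to 17.3 TPM), as does *Muc2*, the main colonic mucin, at 0.0288 to 0.917 TPM, so a value near 0 is reported as listed and not as absence. The library of Y/T KO mouse 759 correlated over the tested genes slightly more closely with the Ctrl libraries (mean r 0.956) than with the other two Y/T KO libraries (0.952), and adjusted p-values without it are given for the genes below whose call changed when it was left out.

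The floxed genes themselves did not separate the genotypes in whole colon. For *Yap1* the Ctrl mice 788, 786, and 787 gave 54.9, 52.8, and 45.8 TPM, and the Y/T KO mice 759, 783, and 780 gave 44.0, 41.3, and 47.0 TPM (values below keep this order of mice within each genotype). *Wwtr1* stood at 16.8, 21.5, and 17.2 TPM in Ctrl against 17.9, 20.5, and 22.7 TPM in Y/T KO. For both genes the groups overlapped (log2 fold change -0.17, SE 0.14, adjusted p = 0.697 in limma for *Yap1*, and 0.18, SE 0.16, 0.73 for *Wwtr1*), and genotypes are those of the labels. Whether transcripts that lack a floxed exon are counted in these values cannot be told from the tables.

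Of the 17500 genes, 14 were called lower in Y/T KO (0.0800%) and 10 higher (0.0571%). A further 18 genes had an adjusted p from 0.05 to 0.1, 10 of them lower and 8 higher, which brings the genes under 0.1 to 24 (0.137%) and 18 (0.103%). At an unadjusted p under 0.05 there were 803 lower (4.59%) and 899 higher genes (5.14%). Without regard to the adjusted p, the groups did not overlap for 1377 genes with every Y/T KO value below (7.87% of those tested) and 1442 with every Y/T KO value above (8.24%), and the median log2 fold change of all tested genes was 0.01. The shares of 7.87% and 8.24% are the background for the gene groups below. With library 759 left out, 44 genes were called lower and 25 higher, and 21 of the 24 called genes remained called. With any one of the other 5 libraries left out, 5 to 7 of the 24 remained called, and 4 genes (*Saa1*, *Htatip2*, *Olfml3*, and *Igkv1-135*) were called whichever library was left out.

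**Figure D1:**
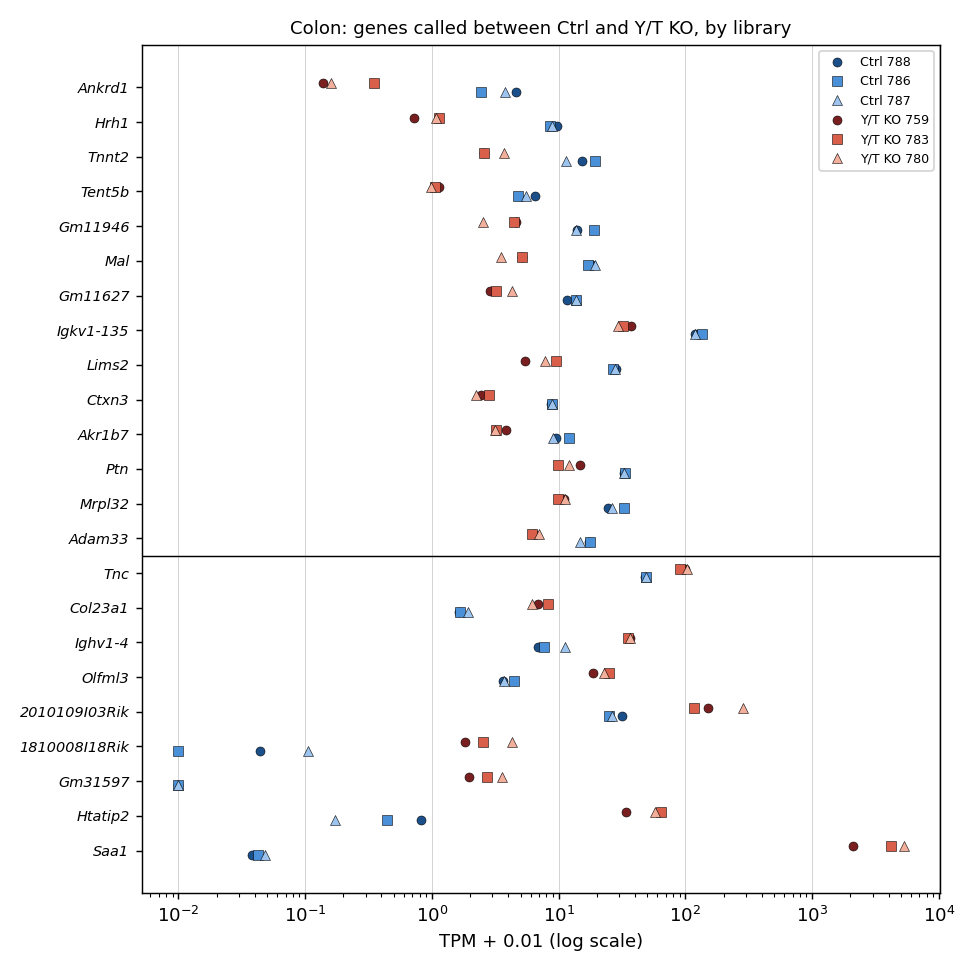
TPM + 0.01 on a log scale in each of the 6 colon libraries (blue, Ctrl; red, Y/T KO; 1 symbol per mouse) for the 14 genes called lower (above the line) and 9 of the 10 called higher (below it) in Y/T KO. In none of these 23 genes do the groups overlap, and *Saa1* spans the widest range, from 0.0282 to 0.0381 TPM in Ctrl to between 2085 and 5284 TPM in Y/T KO. For *Saa1*, *Gm31597*, and *1810008I18Rik*, which passed the filter through the Y/T KO libraries alone, the lack of overlap follows from the filter.

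Of the receptors through which gut muscle is contracted or relaxed, 1 was called. *Hrh1* (chromosome 6, 114397936 to 114483296 of GRCm38, plus strand), the H1 receptor through which histamine contracts smooth muscle, stood at 9.66, 8.46, and 8.81 TPM in Ctrl against 0.717, 1.13, and 1.07 TPM in Y/T KO. Every Y/T KO value lay far below every Ctrl value, and the means were 8.89 ± 1.08 and 0.989 ± 0.23 TPM (SD, n = 3 each), 9.0-fold lower in Y/T KO (-3.06 on the log2 scale, SE 0.26, adjusted p = 0.00982 in limma). The adjusted p of *Hrh1* was 0.0592 without Ctrl mouse 787 and under 0.05 without any other library. *Chrm2*, the M2 muscarinic receptor and the most abundant one of gut muscle, stood at 9.89, 10.7, and 8.14 TPM in Ctrl against 3.23, 1.40, and 1.34 TPM in Y/T KO. Library 759 was the highest of the Y/T KO group but still below every Ctrl library, and the difference missed the threshold (log2 fold change -2.28, SE 0.34, adjusted p = 0.085 in limma). Without 759 it was -2.67 (limma adjusted p = 0.00649, in a range of 0.00649 to 0.272 over the libraries left out in turn). *Chrm3*, the M3 receptor, which triggers contraction through calcium, stood at 1.89, 3.97, and 1.64 TPM in Ctrl against 0.585, 1.12, and 0.625 TPM in Y/T KO. The groups did not overlap, but mouse 786 stood well above the other two Ctrl mice, and the gene was not called (log2 fold change -1.48, SE 0.40, adjusted p = 0.358 in limma).

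Of the 67 receptors listed as contracting or relaxing gut muscle, 46 passed the filter. One was called (*Hrh1*, lower), 11 lay below Ctrl in all Y/T KO libraries, 5 lay above, and the median log2 fold change was -0.15 (0.01 over all tested genes). *Hcrtr1*, an orexin receptor, stood at 1.34, 1.18, and 1.44 TPM in Ctrl against 0.25, 0.0822, and 0.091 TPM in Y/T KO. *Tacr2*, the neurokinin receptor of gut muscle, stood at 3.65, 5.15, and 4.33 TPM against 2.61, 3.14, and 1.81 TPM in Y/T KO. *Adrb3*, the relaxing beta-3 adrenergic receptor, stood at 3.09, 1.64, and 2.81 TPM against 0.98, 0.464, and 1.19 TPM in Y/T KO. The set of lower receptors thus held both contracting and relaxing ones. The receptors above Ctrl in every Y/T KO library included *Ednra*, the endothelin A receptor, at 14.9, 15.7, and 19.2 TPM against 11.1, 12.3, and 9.92 TPM in Ctrl, and *Bdkrb1*, the inducible bradykinin B1 receptor, at 2.06, 3.26, and 8.0 TPM against 1.69, 0.751, and 1.21 TPM in Ctrl. Library 780 held the highest value of both. None of these 5 genes passed the test (limma adjusted p 0.124 for *Hcrtr1*, 0.461 for *Tacr2*, 0.413 for *Adrb3*, 0.372 for *Ednra*, and 0.435 for *Bdkrb1*).

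*Chrm2* lay beside other lower genes. In the window from 36 to 37 Mb of chromosome 6, chosen after the values were seen, the tables list 10 genes, of which 3 passed the filter, and in all 3 every Y/T KO value lay below every Ctrl value. *9330158H04Rik*, a long non-coding RNA on the strand opposite to *Chrm2*, stood at 14.4, 13.6, and 13.1 TPM in Ctrl against 1.34, 0.122, and 0.353 TPM in Y/T KO, with a log2 fold change of -4.68 (SE 0.62, adjusted p = 0.0575 in limma, or 0.00238 without 759), again with 759 highest of its group. *Ptn* (36714929 to 36810220), which encodes the secreted growth factor pleiotrophin, stood at 32.5, 33.3, and 32.5 TPM in Ctrl against 14.6, 9.83, and 12 TPM in Y/T KO. It was called, 2.63-fold lower (log2 fold change -1.41, SE 0.18, adjusted p = 0.0487 in limma). Its nearest end lies 327 kb from the start of *Chrm2*. The start sites of *Chrm2* and *9330158H04Rik* in RefSeq (GRCm38.p6) lie 150 bases apart on opposite strands, each inside the other's transcribed region. Both windows are shown because both genes stood lower: each runs from 250 bases before the start site to 50 bases after it, on the gene's own strand, with the transcribed part in capitals.
*Chrm2*: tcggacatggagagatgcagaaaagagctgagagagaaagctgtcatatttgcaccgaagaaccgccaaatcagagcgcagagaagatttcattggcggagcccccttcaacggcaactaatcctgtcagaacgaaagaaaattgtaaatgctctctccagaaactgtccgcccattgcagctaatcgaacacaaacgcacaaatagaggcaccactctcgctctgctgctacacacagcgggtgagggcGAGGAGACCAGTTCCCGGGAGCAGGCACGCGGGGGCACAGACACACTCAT
*9330158H04Rik*: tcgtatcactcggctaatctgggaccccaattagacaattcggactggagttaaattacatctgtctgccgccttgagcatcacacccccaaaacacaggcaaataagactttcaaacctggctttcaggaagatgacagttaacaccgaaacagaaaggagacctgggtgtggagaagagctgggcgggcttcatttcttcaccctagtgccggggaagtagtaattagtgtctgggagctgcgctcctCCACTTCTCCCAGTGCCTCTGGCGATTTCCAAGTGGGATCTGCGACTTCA

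The windows cover chr6:36387834-36388133 for *Chrm2* (plus strand) and chr6:36388185-36388484 for the non-coding RNA (minus strand). In the tables' own gene models (36209620 to 36390191 for the non-coding RNA and 36388084 to 36528414 for *Chrm2*) the overlap is longer. The library kit keeps the strand, but whether the strand was used in quantification is not given in the sources used here, so reads of the overlap cannot be assigned with certainty.

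Most contractile genes had a lower mean in Y/T KO, but none passed the test. Of the 29 actin, myosin, and thin-filament genes listed, 28 were tested and 0 were called by limma, with 10 at an unadjusted p under 0.05. In 10 of the 28 every Y/T KO value lay below every Ctrl value, against a background of 7.87%, in 0 every value lay above, and 26 of the 28 had a mean below Ctrl. The median log2 fold change was -0.32, and it was -0.24, -0.34, and -0.27 without library 786, 759, and 780 in turn. *Acta2*, smooth muscle alpha-actin, stood at 2010, 1900, and 2008 TPM in Ctrl against 981, 1227, and 937 TPM in Y/T KO, with means of 1954 ± 196 and 1061 ± 147 TPM (SD, n = 3 each). *Myh11*, smooth muscle myosin heavy chain, whose promoter also drives the Cre, stood at 355, 452, and 377 TPM and at 189, 229, and 168 TPM. For both genes the lowest Ctrl value stood well above the highest Y/T KO value. Neither passed the threshold (log2 fold change -0.88, SE 0.17, adjusted p = 0.15 in limma for *Acta2*, and -0.98, SE 0.15, 0.0958 for *Myh11*). *Actg2*, the enteric gamma-actin, stood at 2332, 2056, and 2180 TPM in Ctrl against 1666, 1580, and 1192 TPM in Y/T KO. *Tagln* (transgelin) stood at 2185, 1984, and 2107 TPM against 1385, 1585, and 1511 TPM in Y/T KO. *Myl9*, the regulatory light chain, stood at 1139, 949, and 1112 TPM against 662, 760, and 656 TPM in Y/T KO. The groups did not overlap for these 3 genes, nor for *Mylk*, *Nexn*, *Lmod1*, and *Tpm1*, with log2 fold changes from -0.58 to -0.36. Desmin (*Des*) and calponin (*Cnn1*) overlapped between genotypes, with log2 fold changes of -0.25 and -0.10.

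**Figure D2:**
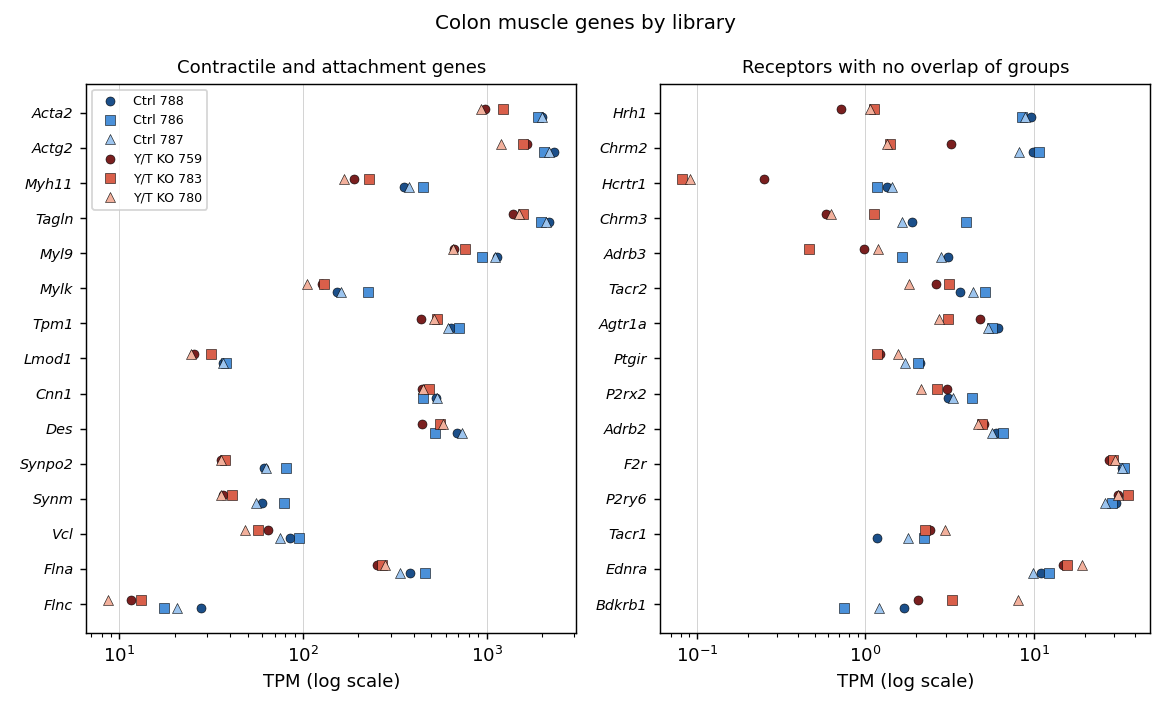
TPM on a log scale in each of the 6 colon libraries (blue, Ctrl; red, Y/T KO; 1 symbol per mouse) for contractile and attachment genes (left) and for receptors whose groups do not overlap, with *Hrh1* and *Chrm2* at the top (right). The receptor *P2rx3*, whose groups do not overlap either, is not drawn. *Acta2* lies at 937 to 1227 TPM in Y/T KO and at 1900 to 2010 TPM in Ctrl, and *Hrh1* at 0.717 to 1.13 TPM and 8.46 to 9.66 TPM.

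Genes that tie the contractile filaments to the membrane and the matrix were lower more often than higher as well. Of 47 tested genes of dense plaques, LIM proteins, intermediate filaments, and caveolae, 0 were called by limma (13 at an unadjusted p under 0.05), 15 lay below Ctrl in every Y/T KO library, 3 lay above, and the median log2 fold change was -0.21. *Lims2* (PINCH2), an adaptor between integrins and actin that was not among the listed genes, was called and fell 3.57-fold. It stood at 28.4, 26.9, and 27.8 TPM in Ctrl against 5.43, 9.52, and 7.76 TPM in Y/T KO, with a log2 fold change of -1.86 (SE 0.23, adjusted p = 0.0409 in limma). *Synpo2*, an actin-bundling protein of muscle, stood at 61.1, 80.4, and 62.6 TPM in Ctrl against 35.8, 37.6, and 35.9 TPM in Y/T KO, with Y/T KO values very close to each other (limma adjusted p = 0.0851). *Synm*, an intermediate filament protein, stood at 59.7, 78.5, and 55.2 TPM against 36.6, 40.9, and 35.7 TPM in Y/T KO. *Vcl* (vinculin), *Flna*, *Flnc*, *Pgm5*, *Lpp*, *Dtna*, and *Actn1* were lower without overlap, with log2 fold changes from -1.17 to -0.41 and adjusted p from 0.314 to 0.4. *Cavin1* and *Cav2* of the caveolae were lower without overlap (-0.46 and -0.51), whereas *Cav1* overlapped (-0.21).

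Genes of striated muscle did not share a direction. Of 45 listed, 19 passed the filter, with 4 below Ctrl in every Y/T KO library and 5 above, and a median log2 fold change of 0.07. *Tnnt2* (chromosome 1, 135836354 to 135852260, plus strand), cardiac troponin T, fell 5.03-fold. It stood at 15.2, 19.4, and 11.5 TPM in Ctrl against 2.56, 2.56, and 3.72 TPM in Y/T KO, with a log2 fold change of -2.30 (SE 0.24, adjusted p = 0.0329 in limma). *Pln*, the inhibitor of the calcium pump of the sarcoplasmic reticulum, was lower without overlap at 2.19, 2.82, and 1.75 TPM against 3.63, 5.86, and 3.71 TPM in Ctrl. The related pump inhibitor *Sln* was higher without overlap at 0.828, 1.3, and 2.9 TPM against 0, 0.22, and 0.318 TPM in Ctrl. *Hspb7*, a small heat shock protein of muscle, lay at 21.1, 25.8, and 26.0 TPM in Y/T KO and 17.3, 12.8, and 14.6 TPM in Ctrl. *Pln*, *Sln*, and *Hspb7* were not called (limma adjusted p from 0.315 to 0.406).

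Among the established targets of YAP/TAZ and TEAD, the direction depended on the gene. All 33 listed targets passed the filter, 9 lay below Ctrl in every Y/T KO library and 4 above, and the median log2 fold change was -0.17. Of these, 1 was called lower. *Ankrd1* (chromosome 19, 36111965 to 36119844, minus strand), a cardiac ankyrin repeat protein and a widely used readout of YAP activity, stood at 4.6, 2.43, and 3.75 TPM in Ctrl against 0.128, 0.342, and 0.149 TPM in Y/T KO. The groups lay far apart, a fall of 17.2-fold in the means (log2 fold change -3.58, SE 0.43, adjusted p = 0.0381 in limma). *Lats2*, which encodes a Hippo kinase and is itself a target, stood at 10.1, 13.6, and 10.4 TPM against 6.85, 6.92, and 5.60 TPM in Y/T KO. *Cdc42ep3*, an actin regulator, stood at 36.4, 38.5, and 36.3 TPM against 26.1, 22.5, and 18.5 TPM in Y/T KO. Neither was called (limma adjusted p = 0.28 and 0.251). *Areg* (amphiregulin) and *Thbs1* (thrombospondin 1) lay above Ctrl in every Y/T KO library, with library 780 the highest of both at 102 and 75.8 TPM. *Ctgf* and *Cyr61*, matricellular proteins and long-known targets, overlapped between genotypes: *Ctgf* had a log2 fold change of -0.14 and *Cyr61* one of 0.74.

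Of the 27 tested genes of the YAP, TAZ, TEAD, and Hippo pathway, 0 were called by limma (3 at an unadjusted p under 0.05), 6 lay below and 2 above Ctrl without overlap, and the median log2 fold change was -0.16. *Tead3* stood at 10, 17.3, and 10 TPM in Ctrl against 8.24, 9.14, and 8.10 TPM in Y/T KO, and *Vgll3*, a TEAD cofactor, at 3.33, 4.59, and 3.64 TPM against 2.40, 1.43, and 2.30 TPM in Y/T KO. Ctrl mouse 786 was the highest library in 15 of these 27 genes. *Tead1* stood at 11.5, 16.6, and 10.2 TPM in Ctrl, whereas Y/T KO mouse 759 gave 2.58 TPM, mouse 783 gave 11.2 TPM, and mouse 780 gave 9.88 TPM. *Tead4* was slightly higher without overlap (4.13, 4.15, and 5.59 TPM against 3.56, 3.40, and 2.95 TPM in Ctrl). Serum response factor and its partners did not separate the genotypes: *Srf* and *Myocd* overlapped between genotypes (log2 fold changes of 0.09 and -0.33), and of the 19 tested genes of this list 2 lay below and 1 above Ctrl.

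The promoters of *Ankrd1*, *Tnnt2*, and *Acta2* are shown because each gene stood lower in Y/T KO and holds the hexamer that TEAD proteins bind (GGAATG, or CATTCC on the other strand, in capitals) between 250 bases before and 50 after its start site. *Ankrd1* and *Tnnt2* were called and *Acta2* was not. They are read 5′ to 3′ on the gene's strand from RefSeq (GRCm38.p6), and for *Tnnt2*, which has more than 1 start, the first window is shown.
*Ankrd1*: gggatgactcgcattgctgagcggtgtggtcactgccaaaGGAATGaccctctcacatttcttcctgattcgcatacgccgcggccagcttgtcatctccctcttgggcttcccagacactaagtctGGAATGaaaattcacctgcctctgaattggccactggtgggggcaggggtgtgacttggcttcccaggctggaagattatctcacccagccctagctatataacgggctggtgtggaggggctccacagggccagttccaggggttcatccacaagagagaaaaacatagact
*Tnnt2*: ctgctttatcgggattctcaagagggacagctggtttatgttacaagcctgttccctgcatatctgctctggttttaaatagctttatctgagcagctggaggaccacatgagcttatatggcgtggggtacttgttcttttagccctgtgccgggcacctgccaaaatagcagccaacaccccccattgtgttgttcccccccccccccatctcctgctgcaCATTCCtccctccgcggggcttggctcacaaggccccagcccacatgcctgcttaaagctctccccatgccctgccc
*Acta2*: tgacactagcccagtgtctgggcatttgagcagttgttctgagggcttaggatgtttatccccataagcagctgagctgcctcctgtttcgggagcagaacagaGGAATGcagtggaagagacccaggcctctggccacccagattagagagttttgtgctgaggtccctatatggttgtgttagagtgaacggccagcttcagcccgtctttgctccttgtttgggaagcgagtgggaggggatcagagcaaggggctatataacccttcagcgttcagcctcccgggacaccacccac

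The windows are chr19:36119795-36120094 for *Ankrd1* (minus strand), chr1:135836084-135836383 for *Tnnt2* (plus strand), and chr19:34255324-34255623 for *Acta2* (minus strand). The hexamers begin 210 and 123 bases before the start site of *Ankrd1*, 27 bases before that of *Tnnt2*, and 146 bases before that of *Acta2*. The hexamer occurs in 14.7% of all 32851 such windows and in 12.5% of those of tested genes. Of the actin, myosin, and thin-filament genes, 22 had a window and 10 held a match, and of the listed TEAD targets 9 of 22 did. Of the genes called lower, 10 had a window and 3 held a match (*Ankrd1*, *Mal*, and *Tnnt2*), in 3 of their 18 windows (16.7%). Of those called higher 2 of 6 did (*Htatip2* and *Olfml3*), in 2 of their 9 windows (22.2%). The CArG box, the site of serum response factor, was searched only in its exact form (CC, 6 bases of A or T, GG). This form occurs in 1.63% of all windows and in those of *Myl9*, *Cnn2*, and *Myl6* among the contractile genes. It occurs in none of the called genes with a window. Near matches, such as those in the *Acta2* window above, were not counted, so a window without a match may still hold a site. A match of letters is a description of these windows and not evidence of binding.

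Channels, pumps, and G-protein regulators were lower more often than higher. Of 49 tested, 0 were called by limma (8 at an unadjusted p under 0.05), 10 lay below Ctrl in every Y/T KO library and 3 above, and the median log2 fold change was -0.08. *Rgs5* and *Rgs4*, which shut off G-protein signals, stood at 62.5, 48.0, and 41.4 TPM against 82.4, 95.1, and 82.6 TPM in Ctrl, and at 8.66, 9.28, and 10.9 TPM against 15.2, 17.5, and 14.1 TPM in Ctrl. Their relative *Rgs2* stood on the other side at 42.7, 33.6, and 36.6 TPM against 25.2, 25.9, and 17.8 TPM in Ctrl. *Atp2b4*, a calcium pump of the plasma membrane, stood at 5.40, 15.3, and 8.86 TPM against 25.6, 42.5, and 21.9 TPM in Ctrl. *Kcnj8*, the pore of the ATP-sensitive potassium channel of muscle, stood at 26.6, 22.6, and 30.0 TPM against 16.7, 16.5, and 14.4 TPM in Ctrl. These 5 genes did not overlap between genotypes and none was called (limma adjusted p from 0.241 to 0.332). In the nitric oxide pathway 2 of 20 tested genes lay below and 2 above. *Nos1*, the neuronal nitric oxide synthase of relaxing motor neurons, lay at 2.02, 1.56, and 1.06 TPM in Y/T KO and at 2.46, 3.40, and 1.99 TPM in Ctrl.

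Of 35 tested enteric neuron genes 0 were called by limma (8 at an unadjusted p under 0.05), 7 lay below Ctrl without overlap and 4 above, and the median log2 fold change was -0.26, which went to -0.02 without library 780. *Snap25*, of the synaptic vesicle machinery, stood at 13.8, 13.9, and 12.2 TPM in Ctrl against 10, 8.39, and 6.26 TPM in Y/T KO. *Elavl4*, the neuronal HuD protein, stood at 1.98, 2.47, and 1.78 TPM against 1.60, 0.843, and 0.859 TPM in Y/T KO. *Penk* (proenkephalin), a neuropeptide precursor, lay at 52.3, 48.0, and 57.0 TPM in Y/T KO and at 32.8, 27.3, and 27.2 TPM in Ctrl (log2 fold change 0.88, SE 0.16, adjusted p = 0.14 in limma), and the neuropeptide genes *Cartpt* and *Npy* were also higher without overlap (limma adjusted p = 0.442 and 0.501). The fixed neuron markers *Uchl1* and *Ret* overlapped between genotypes (log2 fold changes of -0.10 and -0.42). Of 14 tested glial genes 2 lay below and 2 above. *Ptprz1*, a receptor phosphatase that binds pleiotrophin, stood at 1.93, 2.70, and 2.22 TPM in Ctrl against 0.698, 0.239, and 0.230 TPM in Y/T KO, with a log2 fold change of -2.37 (SE 0.43, adjusted p = 0.139 in limma, or 0.0368 without 759), alongside the fall of its ligand *Ptn*, whereas *Gfap* and *S100b*, markers of glia, were higher without overlap. The markers of interstitial cells of Cajal, *Kit*, *Ano1*, and *Etv1*, overlapped, with sums of 117 to 264 TPM in Ctrl (highest in mouse 786) and 120 to 130 TPM in Y/T KO.

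Of 62 tested growth factors and morphogens 0 were called by limma (16 at an unadjusted p under 0.05), 7 lay below and 12 above Ctrl, and the median log2 fold change was -0.03. *Gdnf*, which guides and sustains enteric neurons, stood at 1.68, 2.16, and 2.44 TPM in Ctrl against 1.00, 0.724, and 0.647 TPM in Y/T KO. *Bdnf*, another neurotrophic factor, stood at 1.53, 0.735, and 1.52 TPM against 0.105, 0.259, and 0.318 TPM in Y/T KO. Neither passed the test (limma adjusted p = 0.313 and 0.315). Members of the Wnt pathway lay without overlap on both sides, and none of those named here passed the test. In Y/T KO *Rspo3*, an agonist, was higher at 11.4, 11.1, and 13.7 TPM against 5.57, 7.40, and 5.22 TPM in Ctrl, as were the ligands *Wnt5a* at 17.6, 11.2, and 10.9 TPM against 6.16, 6.41, and 6.01 TPM in Ctrl, and *Wnt2* at 2.65, 5.15, and 3.57 TPM against 1.82, 2.64, and 1.08 TPM in Ctrl (limma adjusted p = 0.143, 0.22, and 0.447). The ligand *Wnt6* was lower, at 1.22, 0.893, and 1.10 TPM in Ctrl against 0.328, 0.495, and 0.735 TPM in Y/T KO (limma adjusted p = 0.514). The secreted Wnt antagonists *Sfrp1*, *Sfrp2*, and *Sfrp4* were higher without overlap.

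Collagen genes stood higher on average in Y/T KO, but not in every mouse. Of 29 tested collagen genes 1 was called (higher), 7 lay above Ctrl in every Y/T KO library and 1 below, and the median log2 fold change was 0.29. The median deviation from each gene's mean was -0.15 in Y/T KO mouse 759, inside the Ctrl range of -0.23 to -0.07. It was 0.39 in mouse 783, which held the highest value of 15 of the 29, and 0.16 in mouse 780. *Col23a1*, a transmembrane collagen, rose 4.16-fold, from 1.63, 1.67, and 1.91 TPM in Ctrl to 6.88, 8.25, and 6.10 TPM in Y/T KO, with a log2 fold change of 1.99 (SE 0.23, adjusted p = 0.0329 in limma). *Col1a2*, a chain of the main fibrillar collagen, lay at 369, 489, and 458 TPM in Y/T KO and at 352, 326, and 295 TPM in Ctrl, and the basement membrane genes *Col4a1* and *Col18a1* were higher without overlap. Among the basement membrane laminins, the direction split by chain: *Lamc1*, the gamma chain of muscle and vessel laminins, stood at 49.4, 51.2, and 45.4 TPM against 77.7, 88.8, and 72.3 TPM in Ctrl, and the epithelial chains *Lama3* and *Lamb3* were higher without overlap. *Itga1*, a collagen receptor of smooth muscle, was lower without overlap (log2 fold change -0.65). None of these laminin and integrin genes was called (limma adjusted p from 0.143 to 0.508). Over all 33 tested laminin and integrin genes 6 lay below Ctrl without overlap and 7 above, with a median log2 fold change of 0.04.

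Of 49 tested matricellular, elastic, and proteoglycan genes, 15 lay above Ctrl without overlap and 6 below, with 1 called. *Tnc* (chromosome 4, 63959785 to 64047015, minus strand), tenascin C, a glycoprotein of remodelling matrix, rose 2.06-fold. It stood at 47.6, 48.9, and 49.0 TPM in Ctrl against 99.6, 91.0, and 102 TPM in Y/T KO, with a log2 fold change of 1.04 (SE 0.13, adjusted p = 0.0446 in limma, or 0.0671 without 759), and both groups were narrow. The matrix proteins *Ltbp2*, *Igfbp5*, *Smoc2*, and *Bgn* were higher without overlap, with log2 fold changes of 2.67, 0.95, 0.61, and 0.56. *Adamtsl2*, a fibrillin-associated glycoprotein, stood at 0.474, 0.574, and 0.460 TPM in Ctrl against 2.75, 7.35, and 8.88 TPM in Y/T KO (limma adjusted p = 0.0556, or 0.00411 without 759). In the other direction, *Nov* (CCN3), a matricellular protein of the same family as *Ctgf* and *Cyr61*, stood at 82.6, 90.8, and 73.2 TPM in Ctrl against 20.9, 31.3, and 34.6 TPM in Y/T KO, with a log2 fold change of -1.49 (SE 0.20, adjusted p = 0.0575 in limma, or 0.0315 without 759). *Igfbp2*, a carrier of insulin-like growth factors, stood at 85.7, 38.1, and 66.5 TPM against 3.58, 5.72, and 9.07 TPM in Y/T KO, 10.2-fold lower in the means (log2 fold change -3.34, SE 0.43, adjusted p = 0.0602 in limma). Among 45 matrix proteases and inhibitors 1 was called lower. *Adam33*, a metalloprotease of smooth muscle and mesenchyme, fell 2.48-fold, from 17.3, 17.7, and 14.7 TPM to 6.35, 6.15, and 7.03 TPM (log2 fold change -1.30, SE 0.17, adjusted p = 0.0462 in limma, or 0.0658 without 759). The protease inhibitors *Serpine2* (29.4, 35.3, and 39.7 TPM against 18, 20.2, and 18.2 TPM in Ctrl) and *Serpina3n* (207, 337, and 637 TPM against 80.1, 137, and 78.8 TPM in Ctrl) were higher without overlap, as were *Mmp3*, *Mmp10*, and *Mmp14*.

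**Figure D3:**
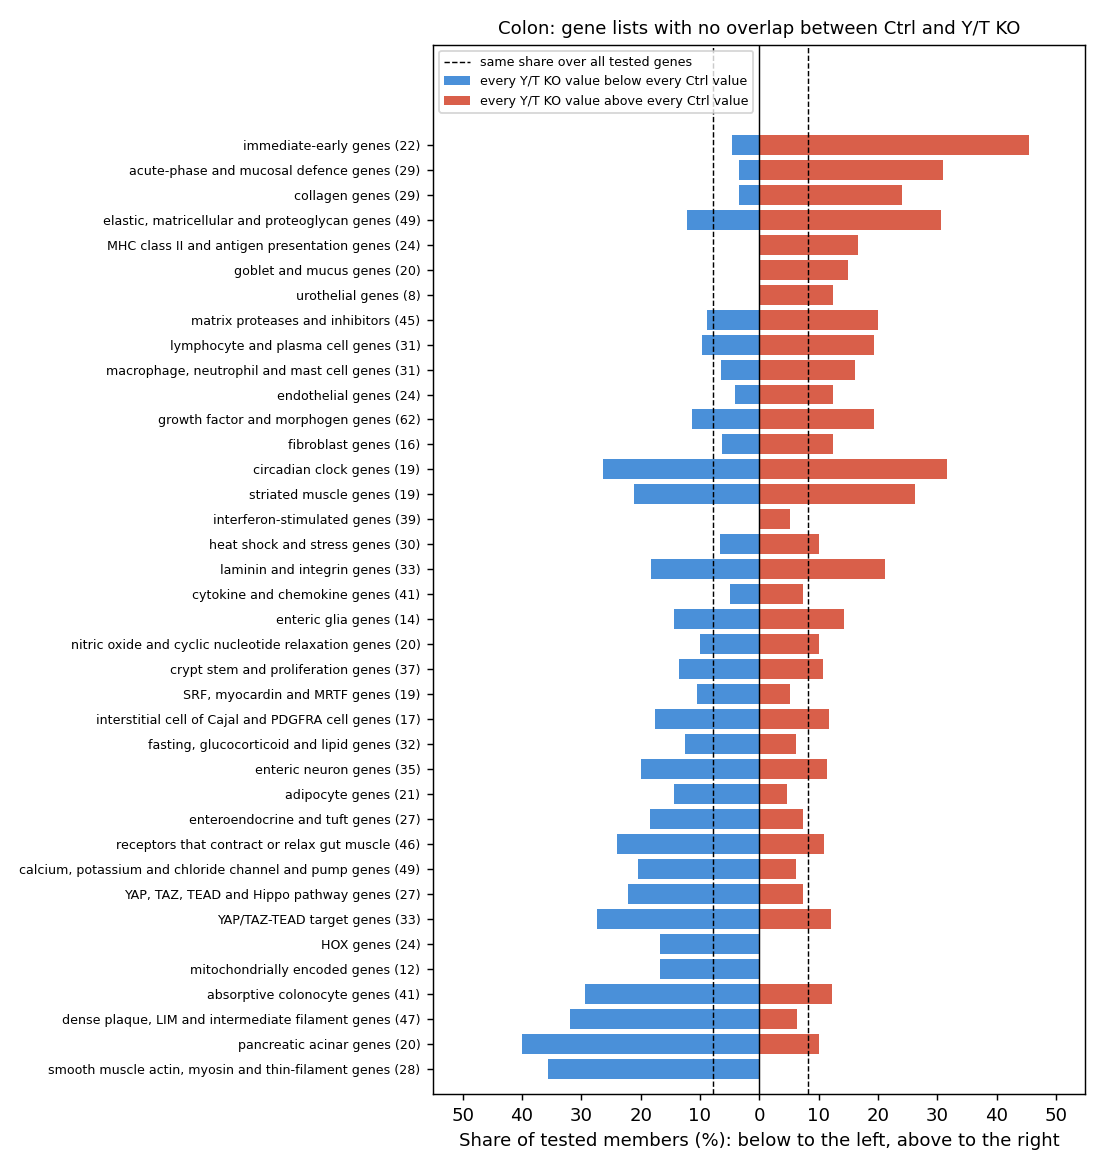
Share of the tested members of each of 38 gene lists (number tested in brackets) for which every Y/T KO value lay below every Ctrl value (blue, to the left) or above every Ctrl value (red, to the right), in percent, with the shares over all 17500 genes as dashed lines (7.87% and 8.24%). Lower members are most frequent among pancreatic acinar (8 of 20) and smooth muscle genes (10 of 28), and higher members among immediate-early genes (10 of 22). Acinar genes such as *Cela2a*, *Prss2*, and *Cpa1*, at 0 in every Y/T KO library, passed the filter through the Ctrl libraries alone. For them a lack of overlap follows from the filter, so the acinar share is not directly comparable with the dashed line.

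Immediate-early genes, which cells switch on quickly and without new protein synthesis, stood higher. Of 22 tested, 0 were called by limma (11 at an unadjusted p under 0.05), 10 lay above Ctrl in every Y/T KO library and 1 below, and 20 had a mean above Ctrl, with a median log2 fold change of 0.58 (0.41 without Ctrl mouse 786, the library with the lowest value in 13 of them). *Fos* lay at 131, 244, and 106 TPM in Y/T KO and at 50.7, 50.5, and 104 TPM in Ctrl. *Fosl1* stood at 1.01, 1.99, and 3.24 TPM against 0.197, 0.337, and 0.163 TPM in Ctrl (limma adjusted p = 0.143), and *Junb* at 18.7, 37.9, and 38.8 TPM against 17.2, 12.6, and 14.9 TPM in Ctrl. Clock genes lay on both sides of Ctrl. *Arntl* (BMAL1) lay at 27.9, 42.0, and 31.4 TPM in Y/T KO against 53.0, 76.5, and 58.6 TPM in Ctrl. *Npas2*, *Cry1*, and *Cry2* were lower without overlap, whereas *Dbp*, *Tef*, *Per1*, *Ciart*, and *Bhlhe40* were higher. *Dbp* stood at 39.0 TPM in mouse 759 and at 12.2 and 7.48 TPM in 783 and 780, against 5.00 to 7.11 TPM in Ctrl. Of 19 clock genes 5 lay below and 6 above Ctrl, and 0 were called by limma (9 at an unadjusted p under 0.05). The labels give no time of day for the dissection.

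The widest difference of the colon was that of an acute-phase gene. *Saa1* (chromosome 7, 46740497 to 46742980, minus strand), serum amyloid A1, an acute-phase protein that inflamed epithelium also makes, stood at 0.0282, 0.0323, and 0.0381 TPM in Ctrl against 2085, 4208, and 5284 TPM in Y/T KO, with a log2 fold change of 14.75 (SE 0.33, adjusted p = 2.55e-06 in limma). *Saa2* stood at 0.0174, 0, and 0 TPM in Ctrl against 0.636, 2.36, and 5.00 TPM in Y/T KO, with a log2 fold change of 4.33 (SE 0.72, adjusted p = 0.112 in limma, or 0.0232 without 759). The 2 genes are near-identical copies, and how the quantification divided reads between them is uncertain. Both passed the filter through the Y/T KO libraries alone, so their lack of overlap follows from the filter. Their relative *Saa3* did not follow them: it stood at 266, 400, and 68.3 TPM in Ctrl against 396, 5.75, and 152 TPM in Y/T KO, with wide overlap. Of 40 listed acute-phase and mucosal defence genes 29 were tested, 9 lay above Ctrl in every Y/T KO library and 1 below, and the median log2 fold change was 0.54, or 0.30 without library 780, which held the highest value of 18 of the 29. *Lyz1*, the lysozyme of Paneth cells, stood at 5.93, 9.19, and 5.98 TPM in Ctrl against 13.3, 89.9, and 57.6 TPM in Y/T KO. Mouse 759 lay just above Ctrl and the others well above, with a log2 fold change of 2.59 (SE 0.68, adjusted p = 0.372 in limma), or 3.41 without 759 (limma adjusted p = 0.0033, in a range of 0.0033 to 0.763 over the libraries left out in turn). *Pla2g2a*, a secreted phospholipase that kills bacteria, stood at 41.5, 33.1, and 85.7 TPM against 21.1, 16.0, and 24.7 TPM in Ctrl. *Duox2* and *Duoxa2*, which make hydrogen peroxide at the epithelial surface, and *Socs3*, a feedback inhibitor of cytokine signals, were above Ctrl in every Y/T KO library, but far above in mouse 780 alone (77.0, 98.6, and 102 TPM, against at most 30.0, 25.2, and 17.5 TPM in the other two).

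The transport genes of mature colonocytes stood lower. Of 41 tested absorptive genes, a list that also holds *Saa1*, 12 lay below Ctrl without overlap and 5 above, the median log2 fold change was -0.16, and *Saa1* alone was called. *Car1*, the carbonic anhydrase of colonic surface cells, stood at 1553, 1280, and 1157 TPM in Ctrl against 891, 497, and 300 TPM in Y/T KO. *Aqp8*, a water channel, stood at 1081, 890, and 810 TPM against 646, 544, and 438 TPM in Y/T KO. *Slc26a3*, the chloride and bicarbonate exchanger, stood at 516, 689, and 403 TPM against 362, 279, and 182 TPM in Y/T KO. *Slc20a1*, a phosphate carrier, stood at 452, 597, and 323 TPM against 294, 139, and 82.5 TPM in Y/T KO. *Cyp2c55*, a colonic cytochrome, stood at 819, 870, and 865 TPM against 599, 450, and 295 TPM in Y/T KO. In these 5 genes 759 was the closest to Ctrl and 780 the farthest, and none was called (limma adjusted p from 0.332 to 0.404). The sodium exchanger *Slc9a3*, the sodium channel subunit *Scnn1a*, and *Car2* and *Car4* were also lower without overlap, while the other channel subunits *Scnn1b* and *Scnn1g* were higher. The general epithelial markers did not follow: *Epcam* had a log2 fold change of 0.05 and *Vil1* of -0.16.

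**Figure D4:**
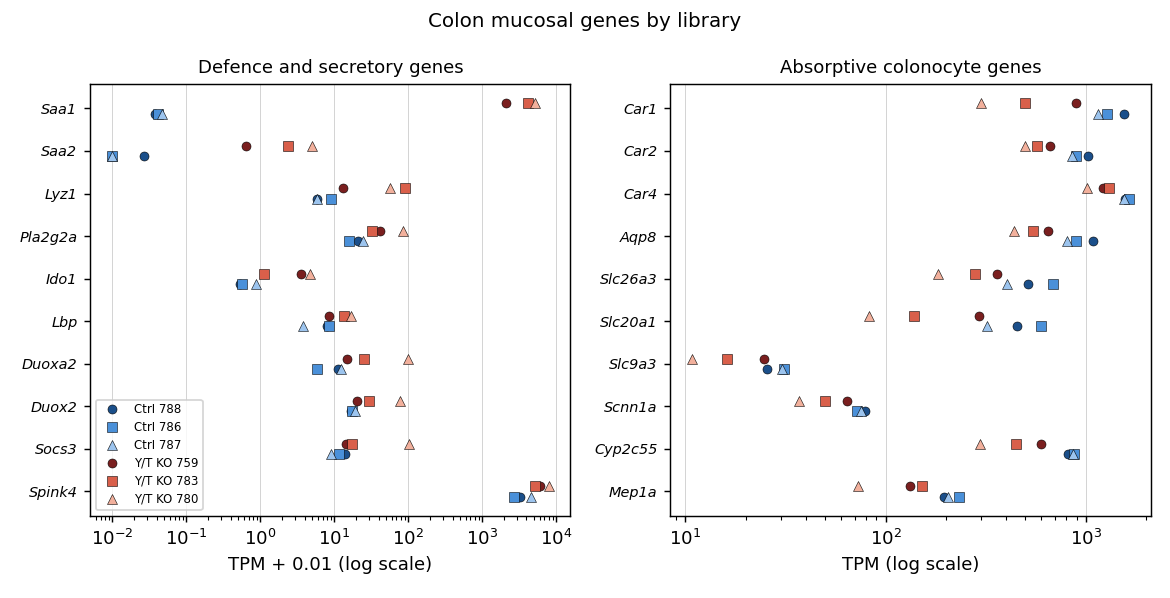
Levels in each of the 6 colon libraries (blue, Ctrl; red, Y/T KO; 1 symbol per mouse) of defence and secretory genes (left, TPM + 0.01, log scale) and of absorptive colonocyte genes (right, TPM, log scale). *Saa1* lies at 2085 to 5284 TPM in the Y/T KO libraries, and among the absorptive genes Y/T KO mouse 780 lies lowest, with *Car1* at 300 TPM.

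Other epithelial lineages had fewer genes without overlap. Of 20 tested goblet cell genes 3 lay above Ctrl without overlap and 0 below, with *Spink4*, a secreted peptide of goblet cells, at 6026, 5237, and 7969 TPM against 3226, 2691, and 4551 TPM in Ctrl. Of 27 enteroendocrine and tuft cell genes 5 lay below and 2 above. *Tph1*, the serotonin-making enzyme of enterochromaffin cells, stood at 17.4, 14.1, and 13.5 TPM in Ctrl against 9.45, 5.52, and 4.69 TPM in Y/T KO, with a log2 fold change of -1.20 (SE 0.28, adjusted p = 0.264 in limma), and *Trpm5*, the channel of tuft cells, was lower without overlap. The hormone genes *Sst* and *Pyy* were higher without overlap. Of 37 crypt stem and proliferation genes 5 lay below and 4 above Ctrl. *Sox9*, a crypt base transcription factor, was higher without overlap (43.8, 41.6, and 29.2 TPM against 27.9, 19.3, and 23.6 TPM in Ctrl), as was the cell cycle inhibitor *Cdkn1a*, and the mitotic kinase *Plk1* was lower.

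Immune genes stood higher in 1 mouse more than in the group. Y/T KO mouse 780 held the highest value of 34 of 39 interferon-stimulated genes, of 24 of 41 cytokine and chemokine genes, and of 18 of 24 genes of antigen presentation. The median log2 fold change of the interferon-stimulated genes was 0.28, and -0.13 without mouse 780, and that of the cytokines went from 0.22 to -0.08. None of these 3 lists had a gene called by limma, and 1, 2, and 4 of their genes had an unadjusted p under 0.05. A smaller set separated the genotypes: the MHC class II genes *H2-Ab1* (138, 130, and 157 TPM against 93.5, 79.4, and 105 TPM in Ctrl), *H2-Aa* (191, 168, and 217 TPM against 139, 128, and 151 TPM in Ctrl), and *H2-DMb1* (8.51, 7.00, and 5.15 TPM against 2.47, 2.48, and 2.37 TPM in Ctrl, limma adjusted p = 0.111) were higher without overlap. The complement genes *C1qa*, *C1qb*, and *C1qc*, made by macrophages, were higher without overlap with log2 fold changes of 0.68, 0.62, and 0.57, while the general macrophage genes *Csf1r* and *Adgre1* overlapped. Of 31 lymphocyte and plasma cell genes 3 lay below and 6 above Ctrl.

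Immunoglobulin variable genes changed in both directions. *Igkv1-135* (chromosome 6, 67609713 to 67610508, plus strand), a kappa light chain segment, fell 3.66-fold, from 119, 134, and 118 TPM in Ctrl to 36.9, 32.4, and 29.5 TPM in Y/T KO, with a log2 fold change of -1.87 (SE 0.13, adjusted p = 0.00458 in limma). *Ighv1-4* (chromosome 12, 114487136 to 114487569, minus strand), a heavy chain segment, rose 4.32-fold, from 6.84, 7.67, and 11.2 TPM to 36.7, 35.5, and 36.8 TPM (log2 fold change 2.14, SE 0.22, adjusted p = 0.0329 in limma). The constant genes did not separate the genotypes: *Igkc* stood at 4458 to 5203 TPM in Ctrl and 3826 to 5019 TPM in Y/T KO, and *Igha* at 1613 to 2579 and 1468 to 2290 TPM. Of the 172 tested immunoglobulin variable genes these 2 were called. Variable segments resemble each other closely, so the assignment of reads among them is uncertain.

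Among genes of tissues outside the colon wall, most pancreatic ones stood lower on average in Y/T KO, but none was called by limma. Of 20 tested pancreatic acinar genes 8 lay below Ctrl without overlap and 2 above, with a median log2 fold change of -1.31. The digestive enzyme gene *Cela2a* stood at 10, 1.63, and 19.9 TPM in Ctrl and is listed at 0 in all 3 Y/T KO libraries (limma adjusted p = 0.0803), as are *Prss2* and *Cpa1*. These genes passed the filter through the Ctrl libraries alone, so their lack of overlap follows from the filter. The 6 fixed acinar markers summed to 56.9, 6.40, and 133 TPM in Ctrl mice 788, 786, and 787 and to 0.347, 0.949, and 1.11 TPM in Y/T KO. The fat markers *Adipoq*, *Plin1*, *Lep*, and *Cidec* summed to 31.8 TPM in Ctrl mice 788 and 786 but to 7.25 TPM in 787, close to the 8.34 to 8.97 TPM of Y/T KO. All 12 tested mitochondrially encoded genes had a lower mean in Y/T KO (median log2 fold change -0.75, and -0.52 without Ctrl mouse 786, which held the highest value of 9), with *mt-Co1* at 15128, 7239, and 12477 TPM against 16618, 33319, and 18920 TPM in Ctrl. The smooth muscle markers *Acta2*, *Myh11*, *Actg2*, and *Des* summed to 4489 to 5514 TPM in Ctrl and to 2957 to 3606 TPM in Y/T KO. The endothelial markers *Pecam1*, *Cdh5*, and *Kdr* summed to 51.2 to 61.1 and 49.4 to 64.5 TPM. What part these shifts have in the values of other genes was not tested. Among the other lists, 3 of 21 adipocyte genes lay below and 1 above Ctrl, 1 of 24 endothelial genes below and 3 above, and 1 of 16 fibroblast genes below and 2 above. Of 17 genes of interstitial cells of Cajal and their PDGFRA-positive neighbours 3 lay below and 2 above, of 32 fasting, glucocorticoid, and lipid genes 4 below and 2 above, and of 30 heat shock and stress genes 2 below and 3 above. Of 24 HOX genes 4 lay below and 0 above, and of 8 urothelial genes 0 below and 1 above.

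The called genes that remain belong to none of the lists. *Htatip2* (chromosome 7, 49759115 to 49773975, plus strand), an oxidoreductase with a role in nuclear transport and cell death, stood at 0.805, 0.433, and 0.163 TPM in Ctrl against 34.0, 64.4, and 57.5 TPM in Y/T KO, with a log2 fold change of 6.68 (SE 0.46, adjusted p = 0.00458 in limma). *Olfml3* (chromosome 3, 103722222 to 103738001, minus strand), a secreted olfactomedin-like protein, rose 5.81-fold, from 3.65, 4.46, and 3.68 TPM to 18.5, 25.1, and 22.9 TPM (log2 fold change 2.50, SE 0.18, adjusted p = 0.00458 in limma). *2010109I03Rik*, a protein-coding gene on chromosome 15, stood at 31.7, 25.0, and 26.5 TPM in Ctrl against 152, 117, and 284 TPM in Y/T KO (limma adjusted p = 0.0446, or 0.0639 without 759). In all, 3 non-coding RNAs were called. *Gm31597*, antisense to *Sult2b1* on chromosome 7 and likewise overlapping it, is listed at 0 in all Ctrl libraries. It gave 1.96, 2.71, and 3.59 TPM in Y/T KO. *1810008I18Rik* stood at 0.0339, 0, and 0.0959 TPM against 1.83, 2.51, and 4.25 TPM in Y/T KO. Both passed the filter through the Y/T KO libraries alone, so their lack of overlap follows from the filter. *Gm11946*, antisense to the smoothelin gene *Smtn*, fell 3.95-fold (whether its reads come from *Smtn* cannot be told where the genes overlap). *Mal*, a proteolipid of apical membrane traffic, fell 3.90-fold, from 18.2, 16.9, and 19.5 TPM to 5.12, 5.13, and 3.49 TPM (log2 fold change -1.95, SE 0.22, adjusted p = 0.0329 in limma). *Tent5b*, a poly(A) polymerase, fell 5.23-fold to 1.13, 1.05, and 0.969 TPM, *Gm11627* fell 3.68-fold, *Ctxn3* (cortexin 3) fell 3.48-fold, *Akr1b7*, an aldose reductase-like enzyme, fell 2.91-fold, and *Mrpl32*, a protein of the mitochondrial ribosome, fell 2.52-fold (limma adjusted p from 0.0329 to 0.0446). Of the 24 called genes 19 code for proteins, as do 13964 of the 17500 tested. On chromosome 6 lie 4 called genes of 988 tested, and on chromosome 7 lie 4 of 1326, against 24 of 17500 in all. The 4 on chromosome 7 (*Gm31597*, *Saa1*, *Htatip2*, and *1810008I18Rik*) were all higher in Y/T KO and lie between 45742049 and 65806449.

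The effect in the colon was set against that in the bladder of the same series, with the test of the difference itself. Of the 24 called genes 21 were tested in the bladder as well, including all 14 lower genes, 11 of which were also lower there on average. In 5 of the 21 the knockout effect differed between the organs (interaction term in limma, adjusted p under 0.05), and of all 16298 genes tested in both organs 8 differed (0.0491%). *Hrh1* fell in the colon: its log2 fold change was -3.06 there and 0.34 in the bladder (difference -3.40, SE 0.32, adjusted p = 0.00144 in limma). *Mal* likewise had -1.95 and -0.09 (difference -1.86, SE 0.25, adjusted p = 0.0244 in limma). *Olfml3* had 2.50 and -0.96 (difference 3.46, SE 0.49, adjusted p = 0.0415 in limma), and *Htatip2* 6.68 and 1.38 (difference 5.30, SE 0.53, adjusted p = 0.00267 in limma). *Htatip2* was thus higher in the bladder as well (limma adjusted p = 0.0161 there). So was *Gm31597*, at 4.81 in the colon and 4.57 in the bladder (limma adjusted p = 0.0156 in the bladder). Its difference was 0.24 (SE 0.52, adjusted p = 0.872 in limma). *Igkv1-135* went in opposite directions, -1.87 in the colon and 2.88 in the bladder (difference -4.75, SE 0.32, adjusted p = 5.74e-05 in limma). For the muscle genes below the difference missed the threshold, which does not show that the organs respond alike. The difference was -0.64 (SE 0.62) for *Chrm2*, -0.09 (SE 0.46) for *Chrm3*, -0.01 (SE 0.28) for *Acta2*, -0.63 (SE 0.26) for *Myh11*, and -0.29 (SE 0.38) for *Tnnt2*, with adjusted p from 0.342 to 0.987. Mice 780, 783, and 788 gave both organs, and with the mouse as a replicate block the same 5 called genes differed.

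**Figure D5:**
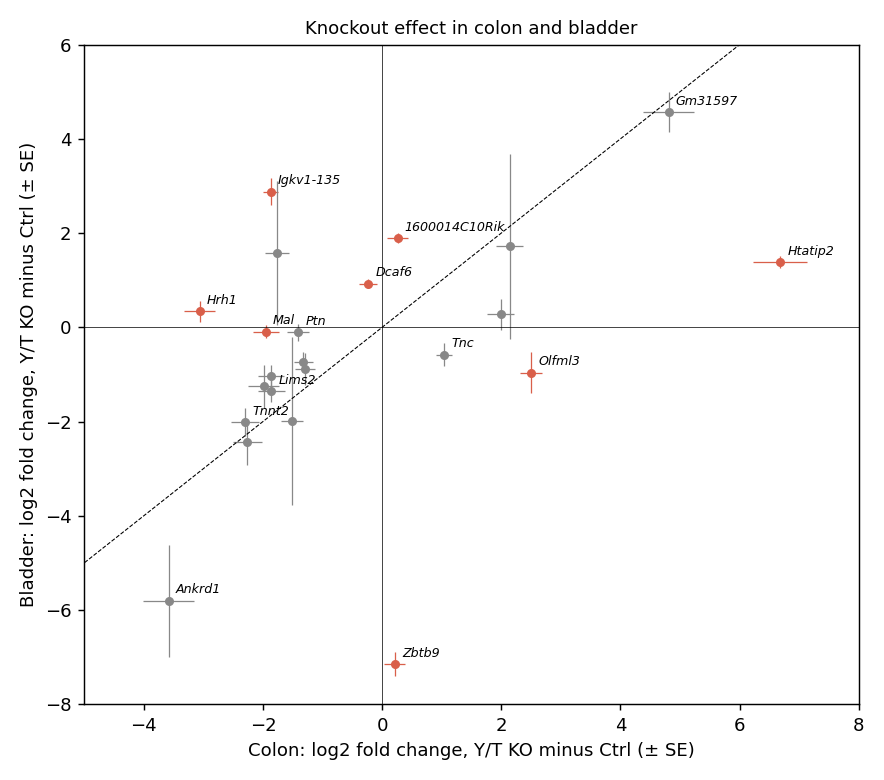
Log2 fold change in Y/T KO in the colon (x axis) against that in the bladder (y axis), each with its SE, for 20 of the 21 called colon genes tested in both organs and the 3 other genes whose effect differed between them; the dashed line marks equal effects. The 8 genes whose difference passed the test are red, with *Hrh1* at -3.06 in the colon and 0.34 in the bladder.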

How the data were processed

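Polyadenylated RNA of whole distal colon was sequenced from stranded libraries, 1 mouse per library, so replicates are separate mice. The authors' notes name HISAT2 and StringTie on GRCm38, without versions, and the deposited tables give TPM, FPKM, and coverage per gene and no counts. TPM was summed by gene identifier and rescaled by median-of-ratios size factors over the colon libraries, and coverage served to estimate aligned sequence from the deposited signal. A gene was kept where 3 or more of the 6 libraries held 0.5 TPM or more. log2(TPM + 0.1) was fitted in limma 3.58.1 (R 4.3.3) with trend and robust options, two-sided, with Benjamini-Hochberg adjustment. The difference from the bladder is the interaction term over all 12 libraries. The steps were tested on simulated data with 200 of 17500 genes changed. The changed genes were drawn only from those with a mean log2(TPM + 0.1) above 1, and the noise was normal. The recovery of lower genes or of uneven replicates is thus not given. Of changes of 1, 2, and 4 on the log2 scale, 40%, 94%, and 99% were recovered, with 9, 17, and 19 false calls. With no gene changed there were 0 false calls. A change of 1 or less can thus be missed by this test. Some far larger differences in the colon did not pass either. They include *9330158H04Rik* at -4.68 (limma adjusted p = 0.0575) and *Igfbp2* at -3.34 (limma adjusted p = 0.0602). An exact permutation test of 3 against 3 mice cannot go below p = 0.1. The depth sets the precision of low values, for which no counting interval can be given without counts. Tables and figures were made in Python 3.11.15 with pandas 2.3.3 and matplotlib 3.10.9.

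The members and the 38 gene lists were chosen with earlier results of these data known. Genes were named by rule: all called genes, *Yap1*, *Wwtr1*, and genes the study names, and in each list the 2 members with the smallest unadjusted p in each direction among those without overlap, plus markers and direct relatives. Of the genes with an adjusted p from 0.05 to 0.1, those in a list were named. Any further gene (among them *Gapdh*, *Adamtsl2*, and the further list members given as examples) was chosen after its values were seen. Some genes that meet the rule are not reported here. The alternatives were other pseudocounts (0.5 and 1 TPM), no filter or a mean of at least 1 TPM, TPM without rescaling, the authors' FPKM values, all 12 libraries in 1 fit, no trend and robust options, an adjusted p of 0.1, the mouse as a block, and each library left out in turn.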

Additional observations from a re-analysis of the deposited data

Results flagged for a closer look

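In 8 genes the knockout effect in the colon differed from that in the bladder by the interaction term in limma. The difference, colon minus bladder on the log2 scale, was 7.36 for *Zbtb9*, -4.75 for *Igkv1-135*, -3.40 for *Hrh1*, 5.30 for *Htatip2*, -1.63 for *1600014C10Rik*, -1.16 for *Dcaf6*, -1.86 for *Mal*, and 3.46 for *Olfml3*. For *Zbtb9*, *1600014C10Rik*, and *Dcaf6* the difference lay on the bladder's side: their log2 fold changes in the colon were 0.21, 0.26, and -0.23, against -7.15, 1.89, and 0.93 in the bladder, with adjusted p-values of the difference of 4.07e-08, 0.00418, and 0.0244. For the other 5 genes the colon values stand above.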

How the results depend on the processing

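The number of called genes depended on the settings. The 14 genes called lower became 2 with no filter on low values, 38 with all 12 libraries in one fit, and 24 at an adjusted p under 0.1, and the 10 called higher became 4, 33, and 18. When 1 library was omitted at a time, the count ranged from 3 (without Ctrl 787, Y/T KO 783, or Y/T KO 780) to 44 (without Y/T KO 759) for lower and from 3 (without Y/T KO 783) to 25 (without Y/T KO 759) for higher genes. The cause was not tested, beyond the fewer libraries or other genes that each setting uses. The 8 genes that differed between colon and bladder became 13 with no filter and 6 to 25 with 1 library left out (25 without Y/T KO colon 759, 15 without Y/T KO bladder 782, 13 without Ctrl colon 786). Other pseudocounts, a mean of at least 1 TPM, TPM as deposited, FPKM, and the fit without trend kept the counts of lower and higher genes within 1.5 times the reported ones.

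Ctrl and Y/T KO colons share no mouse. Mice 780, 783, and 788 gave both organs, and with the mouse as a replicate block 9 genes differed between organs. The deviations of the same mouse in the 2 organs correlated at 0.059, 0.0885, and -0.0162.

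Of 2557 refits of named genes, 2388 kept direction and side of the threshold, 122 lost the call, 29 gained it, and 18 changed sign, all in genes that were not called and with 1 library left out. Their log2 fold changes ranged with 1 library left out from -0.8 to 0.18 for *Myocd*, from -0.17 to 0.32 for *Srf*, from -0.33 to 0.04 for *Ctgf*, and from -2.66 to 0.39 for *Saa3*. They ranged from -0.09 to 0.14 for *Epcam*, from -0.27 to 0.07 for *Uchl1*, from -0.53 to 0.08 for *Kit*, from -0.63 to 0.19 for *Ano1*, and from -1.0 to 0.16 for *Cidec*. The ranges were -0.18 to 0.06 for *Pecam1*, -0.01 to 0.18 for *Cdh5*, -0.12 to 0.02 for *Kdr*, -0.44 to 0.0 for *Igha*, and -0.19 to 0.61 for *Adgre1*. Of 532 refits of list medians 24 moved by more than the spread between replicates. Values at or near 0 in tables without counts limit what can be said of low genes.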
